A study of Mus musculus with 4 samples.

Results

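Immediate early genes are a set of 10 genes (Fos, Fosb, Jun, Junb, Jund, Egr1, Ier2, Zfp36, Btg2 and Dusp1) taken by name from the 31053 genes counted in mouse bone marrow hematopoietic stem cells (HSCs). All 10 were present in the count tables. The cells came from 2 male mice aged 14 weeks of the strain Tie2-bG-Micm x RosaYFP, in which an inducible Cre is driven by the Tie2 promoter and a YFP reporter lies at the Rosa locus. All libraries share this genotype, and no treatment is named in the labels. Each mouse gave a library of long-term HSCs (LT-HSC), sorted as lineage-negative cells with Kit, Sca-1 and CD150 and without CD48, and a library of short-term HSCs (ST-HSC), sorted by the same markers but without CD150. The LT-HSC libraries of mice 1 and 2 are called LT1 and LT2 and the ST-HSC libraries ST1 and ST2. The 4 libraries were made with the 10x Chromium 3' v3 kit, in which each captured RNA molecule carries a unique molecular identifier (UMI) and copies of it are counted once.

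Immediate early genes are transcribed within minutes of a stimulus, without new protein synthesis, when kinase cascades such as the MAPK pathway activate factors already bound at their promoters, among them SRF with its ternary complex partners and CREB. Their products include the subunits of the dimeric transcription factor AP-1 and proteins that switch the response off again. In blood stem cells they are known both for their links to quiescence and differentiation and for their sensitivity to the enzymes, temperature and time of cell isolation.

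In the mm10 assembly with the GENCODE vM21 annotation, Fos (ENSMUSG00000021250) spans chr12:85473890-85477273 and Fosb (ENSMUSG00000003545) chr7:19302696-19310051. Jun (ENSMUSG00000052684) spans chr4:95049034-95052222, Junb (ENSMUSG00000052837) chr8:84974484-84978718 and Jund (ENSMUSG00000071076) chr8:70698949-70700616. Ier2 (ENSMUSG00000053560) spans chr8:84661331-84662852, Zfp36 (ENSMUSG00000044786) chr7:28376784-28380253, Btg2 (ENSMUSG00000020423) chr1:134075170-134079120 and Dusp1 (ENSMUSG00000024190) chr17:26505590-26562128. Egr1 is ENSMUSG00000038418. Jun, Junb, Jund and Ier2 have a single exon in their first annotated transcript. Genes annotated on the other strand overlap Jun (Junos), Junb (Prdx2), Jund (Gm11175), Zfp36 (Gm44710) and Dusp1 (Gm8225 and Ergic1). The sources used here do not give whether the counting used strand, so the values of these 5 members could hold tags of their neighbours. Dusp1 is also overlapped on its own strand, by AC122252.4 and AC122252.1.

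RefSeq start site windows of 300 bases (GRCm38.p6, 250 before to 50 after the start) were matched for 8 of the 10 members. No window was available for Egr1 and Ier2. The stretches below are the 200 bases before the start of Fos, Fosb and Btg2, shown because Fos and Btg2 were the members that differed between the gates and Fos and Fosb formed the closest pair in single cells. Capitals mark the core TGACG of the cyclic AMP response element (CRE), to which CREB binds, on either strand. They lie at chr12:85473690-85473889 (plus strand), chr7:19310046-19310245 (minus strand, its last 6 bases inside an annotated exon) and chr1:134079156-134079355 (minus strand).
Fos promoter: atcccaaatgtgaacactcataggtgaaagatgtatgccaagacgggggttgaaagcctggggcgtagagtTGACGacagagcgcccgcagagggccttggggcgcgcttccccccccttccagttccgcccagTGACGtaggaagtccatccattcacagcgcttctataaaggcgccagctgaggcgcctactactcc
Fosb promoter: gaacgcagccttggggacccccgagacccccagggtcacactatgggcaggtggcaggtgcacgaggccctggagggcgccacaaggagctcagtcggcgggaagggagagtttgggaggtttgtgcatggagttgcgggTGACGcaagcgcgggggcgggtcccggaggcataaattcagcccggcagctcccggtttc
Btg2 promoter: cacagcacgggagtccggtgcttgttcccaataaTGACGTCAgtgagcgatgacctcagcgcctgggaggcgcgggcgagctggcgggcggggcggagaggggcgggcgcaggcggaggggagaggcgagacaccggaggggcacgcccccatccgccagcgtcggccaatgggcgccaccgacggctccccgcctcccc

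In Fos the core begins 129 and 66 bases before the start, and in Fosb 60 bases before it. In Btg2 the core stands on both strands as the full palindrome TGACGTCA, which begins 166 bases before the start. The core occurred in 5 of the 8 member windows (Fos, Fosb, Junb, Btg2 and Dusp1) and in 20.8% of all 32851 windows. The full palindrome occurred in Btg2 and Dusp1 and in 1.79% of all windows. A CArG box, the SRF motif, was found in the window of Zfp36 and in 1.63% of all windows. There it lies 58 to 49 bases before the start, inside an exon of a longer annotated transcript. The AP-1 motif TGANTCA, searched on both strands like the others, was in 0 of the 8 windows and in 7.81% of all windows. These are letter matches only, and the core is part of the palindrome.

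The 4 libraries are not of equal quality. A barcode counted as a cell with 1000 or more genes, 2000 or more UMIs and a share of mitochondrial transcripts up to 10%. LT1 kept 22 of 39553 barcodes with 115305 UMIs in all, at a median of 4494.5 UMIs per cell, and its 3-count floor was 26.0 CPM (UMIs of a gene per 1000000 UMIs). The other libraries kept 1217 to 2633 cells with medians of 7504 to 10367 UMIs and floors of 0.108 to 0.226 CPM. The kept cells of different libraries shared at most 1 barcode. HSC markers were present in every library, with 12 or 13 of 13 detected and a sum of 1967 to 2636 CPM. Slamf1, the gene of CD150, had 34.7 CPM in LT1 and 21.9 CPM in LT2, but 0.825 CPM in ST1 and 1.40 CPM in ST2. LT1 therefore rests on few cells. Its values over all its barcodes, most of which hold 200 to 500 UMIs, are given beside those of its kept cells. The median over all its barcodes was 285 UMIs. Whether the barcodes that failed the filter hold cells or free RNA was not tested, so values over all barcodes may not be those of LT-HSCs.

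The AP-1 genes were present in all 4 libraries, except that Fosb had 0 UMIs in the 22 cells of LT1. Levels are CPM over the kept cells on plain totals, in the order LT1, LT2, ST1 and ST2. A 3' kit yields tags from the ends of transcripts, so the values were not divided by length, and they are compared between libraries rather than between genes. Jund, an AP-1 subunit known for steady expression, lay at 260, 299, 262 and 245 CPM. Its levels spanned a narrow range, and only LT2 lay above the 95% Poisson intervals of both ST-HSC libraries. Jun, the AP-1 subunit that pairs with all Fos proteins, lay at 104, 230, 226 and 186 CPM. LT2 and ST1 overlapped in their intervals, and ST2 was lower. Junb, a subunit that restrains proliferation in the blood system, lay at 43.4, 63.4, 88.2 and 62.0 CPM, highest in ST1. Fos, the classic stimulus-induced partner of Jun, lay at 78.1 CPM from only 9 UMIs in LT1, then at 35.2, 80.6 and 53.7 CPM. Over all barcodes LT1 gave 40.4 CPM of Fos from 549 UMIs, below both ST-HSC libraries. Fosb lay at 33.1, 36.2 and 31.8 CPM in the last 3 libraries with overlapping intervals.

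Egr1, a zinc finger transcription factor, lay at 34.7 (4 UMIs), 29.2, 50.9 and 25.0 CPM. ST1 stood above the other 3, which lay close together. Ier2, a small nuclear protein of the early response, lay at 17.3 (2 UMIs), 128, 140 and 118 CPM. Its low value in the 22 cells of LT1 was not seen over all barcodes of that library, which gave 150 CPM from 2032 UMIs.

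Members known to end the response were present too. Zfp36, which encodes tristetraprolin, a protein that marks AU-rich mRNAs for decay, lay at 26.0 (3 UMIs), 25.8, 51.3 and 28.4 CPM. Dusp1, a phosphatase that turns off MAP kinases, lay at 17.3 (2 UMIs), 33.4, 32.3 and 28.2 CPM. Btg2, an antiproliferative protein that recruits mRNA deadenylases, lay at 8.67 (1 UMI), 9.28, 37.7 and 24.5 CPM. Btg2 was the member whose LT-HSC and ST-HSC values lay farthest apart, and its 12.6 CPM over all barcodes of LT1 was again below both ST-HSC libraries. Summed over the 10 members, the libraries held 590, 887, 1005 and 804 CPM. These are bulk sums within each library, in which fewer expressing cells and less RNA per cell cannot be told apart.

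**Figure D1:**
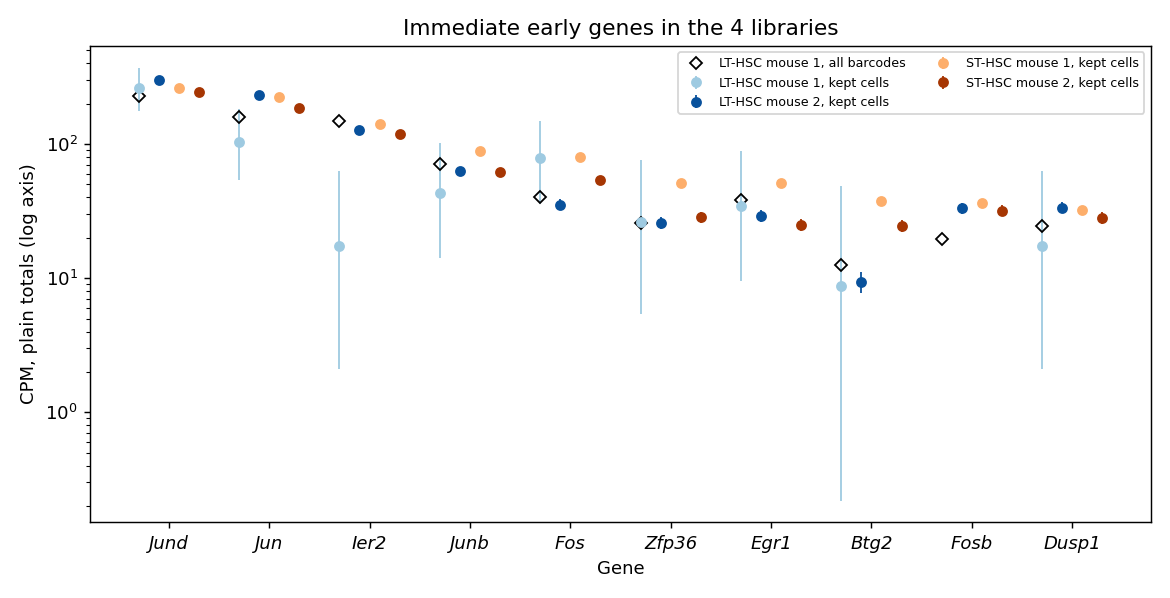
Level of each immediate early gene in the 4 libraries, in CPM of the kept cells (plain totals, log axis), with 95% exact Poisson intervals that cover counting error only. Open diamonds show all barcodes of LT1, and the 0 UMIs of Fosb in its kept cells cannot be drawn on a log axis. Btg2 is at 8.67 and 9.28 CPM in the LT-HSC libraries and at 37.7 and 24.5 CPM in the ST-HSC libraries.

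The gate comparison asked which members differ between LT-HSC and ST-HSC. The counts of all kept cells of a library were summed and tested with edgeR's quasi-likelihood test, and p-values were adjusted by Benjamini-Hochberg over 12656 genes. All 10 members were tested. In LT-HSC 0 were higher, and 2 were higher in ST-HSC, Btg2 and Fos (3 had an unadjusted p under 0.05). Over all genes, 3.60% were called in the direction of LT-HSC and 3.13% in that of ST-HSC. The median log2 difference of the members was -0.24 (LT-HSC minus ST-HSC), against -0.02 over all genes. The p-values rest on 2 mice per gate, and both gates came from the same mice.

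Btg2 averaged 8.84 ± 0.914 CPM over the LT-HSC libraries and 31.6 ± 8.92 CPM over the ST-HSC libraries (TMM-scaled totals, mean ± SD, n = 2 libraries). The groups did not overlap, but the LT1 value is 1 UMI, under the floor of 26.0 CPM in that library. The fitted log2 difference was -1.75 (SE 0.25, edgeR adjusted p = 4.63e-10, range over alternatives 2.63e-11 to 1.00). It was -1.45 (adjusted p = 1.15e-05) with mouse as a block. Over all barcodes of LT1, most of which failed the cell filter, it was -1.39 (adjusted p = 0.00236). Within mouse 2 alone, where both libraries had over 1000 cells, Btg2 was at 9.28 against 24.5 CPM.

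Fos averaged 54.9 ± 26.7 CPM over the LT-HSC libraries and 68.3 ± 18.2 CPM over the ST-HSC libraries (mean ± SD, n = 2), and the groups overlapped. The fitted log2 difference was -0.84 (SE 0.21, edgeR adjusted p = 0.00192, range 0.00108 to 1.00). The fit gives little weight to the 9 Fos UMIs of LT1. Fos also passed with mouse as a block (-0.57, adjusted p = 0.0468) and over all barcodes of LT1 (-0.71, adjusted p = 0.0467). It did not pass without LT2 (0.10), without ST1 (-0.50, adjusted p = 0.688), or in cells with low cycle scores only (-0.57, adjusted p = 0.213).

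DESeq2, the alternative count test, called 0 of the 10 members in either direction (1, Btg2, had an unadjusted p under 0.05), and 28 and 24 genes in all. Without LT2, edgeR also called 0 members, and LT-HSC then rested on 22 cells. That fit called 1 gene higher in LT-HSC and 0 in ST-HSC of 12893 genes (1080 at an unadjusted p under 0.05).

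The other 8 members did not pass the gate test. Zfp36 had a log2 difference of -0.63 (SE 0.22, edgeR adjusted p = 0.0673), which with mouse as a block was -0.23 (SE 0.23). It passed (adjusted p = 0.0325) once cells taking 1% or more of their UMIs from markers of another blood cell type were left out, a choice made after the data were seen that removed 0, 3, 10 and 20 cells. Egr1 had -0.38 (SE 0.22) and, with mouse as a block, 0.12 (SE 0.22). The differences of Junb (-0.29, SE 0.19), Ier2 (-0.20, SE 0.19), Fosb (-0.12, SE 0.21), Jun (-0.04, SE 0.19), Dusp1 (0.10, SE 0.21) and Jund (0.16, SE 0.19) were smaller, with edgeR adjusted p of 0.652 or more.

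Markers of other blood cells moved with the gate. Neutrophil markers summed to 520, 523, 1065 and 2462 CPM in LT1, LT2, ST1 and ST2, and 9 of 12 were called higher in ST-HSC. Of 8 tested erythroid markers 6 were called higher in ST-HSC, and of 4 tested mast cell and basophil markers 2 were, while their sums were 867 to 1150 CPM and 0 to 84.7 CPM over the 4 libraries. Macrophage markers summed to 711, 1003, 449 and 606 CPM on plain totals, with 8 of the 10 at 0 in LT1. One of these markers, Apoe, had 459, 657, 126 and 103 CPM on TMM-scaled totals. It was singled out after its values were seen. Of the 7 tested macrophage markers 6 had a negative log2 difference (LT-HSC minus ST-HSC). Of 4 tested B cell markers 1 was called higher in ST-HSC, and of 2 tested T and NK cell markers 1 was called in each direction. Without the cells above 1% of such markers, Btg2 was at -1.73 (SE 0.24) and Fos at -0.84 (SE 0.20). Some list genes were high in all 4 libraries: Car2 at 729 to 895 CPM, Prtn3 at 366 to 495 CPM and Lyz2 at 213 to 503 CPM (TMM-scaled totals). A list sum, or 3 UMIs of a list in a cell, thus need not come from another cell type. Without all cells holding 3 UMIs of a list, which left 5, 58, 32 and 51 cells, Fos was at -0.37 (SE 0.59, edgeR adjusted p = 0.985) and Btg2 was not tested. That fit called 0 of 3771 genes in either direction, with 217 at an unadjusted p under 0.05. The part of the markers in the differences of Btg2 and Fos was not tested further.

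Other genes of the early response were compared from a list of 40, of which 34 were tested. Between the gates, 2 were higher in LT-HSC and 2 in ST-HSC. Maff, a small Maf factor, had 16.4 and 11 CPM (LT1, LT2) against 4.66 and 3.96 CPM (ST1, ST2) (1.37, SE 0.32, edgeR adjusted p = 0.000565). Its LT1 value lies under the floor of 26.0 CPM in that library. Nfkbia, the inhibitor of NF-kB, lay at 197 and 172 CPM against 112 and 112 CPM (0.66, SE 0.19, edgeR adjusted p = 0.00832). Higher in ST-HSC were Dusp5, a nuclear phosphatase of MAP kinases (-0.99, SE 0.28), and Klf2, a zinc finger factor (-1.15, SE 0.36, named after its value was seen). Of 19 genes of the kinases and factors upstream (MAPK, SRF, ternary complex and CREB genes), 0 passed edgeR's test between the gates in either direction, and 2 had an unadjusted p under 0.05. Of 9 tested heat shock genes, which respond to handling and temperature, 0 passed and 1 had an unadjusted p under 0.05.

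The mouse comparison asked whether members differ between the 2 animals, whose cells were sorted and loaded as separate libraries. In ST-HSC, the gate with enough cells in both mice, all 10 members were lower in mouse 2 on plain totals. The share of all genes lower in mouse 2 is not given here. On TMM-scaled totals Jund was at 264 against 253 CPM (mouse 1 against mouse 2). The ratios on plain totals ran from a log2 of -0.10 for Jund (262 against 245 CPM) to -1.03 for Egr1 (50.9 against 25.0 CPM). There was 1 library per mouse and no test. Zfp36 followed at -0.85, Btg2 at -0.62, Fos at -0.58 and Junb at -0.51. Between LT1 over all barcodes and LT2, Egr1 lay at 38.5 against 29.1 CPM, and Jund at 227 against 299 CPM went the other way.

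In an edgeR model with gate and mouse over all 4 libraries, 0 members were higher in mouse 2 and 1, Egr1, was higher in mouse 1. In that model 5 of the 10 members had an unadjusted p under 0.05, as did 902 of 12656 genes. Over all genes 0.751% were called higher in mouse 2 and 0.182% in mouse 1. Egr1 differed by -0.91 (mouse 2 minus mouse 1, SE 0.22, edgeR adjusted p = 0.00569, range 0.00340 to 1.00) and by -0.80 over all barcodes of LT1. Zfp36 (-0.75, SE 0.22, adjusted p = 0.0652), Fos (-0.60, SE 0.19, adjusted p = 0.0989) and Btg2 (-0.56, SE 0.25, adjusted p = 0.574) did not pass. DESeq2 called 0 members, with 0 at an unadjusted p under 0.05. Of the other early response genes, 1 of 34 passed, Ppp1r15a, a phosphatase subunit of the stress response (-0.81, SE 0.23), and the remaining 33 did not. The 9 heat shock genes gave 0 calls and 0 at an unadjusted p under 0.05. The model leaves 1 residual degree of freedom, and animal, sort and library cannot be told apart. On simulated counts the share of false calls among the calls of this mouse test was well above the threshold of 0.05.

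Values that mark library handling were set beside these levels. The median mitochondrial share of kept cells was 4.45, 3.12, 3.42 and 3.24% in LT1, LT2, ST1 and ST2. Neutrophil markers were higher in mouse 2 for 9 of 12 genes, against the direction of Egr1. The heat shock genes summed to 4319, 4786, 5162 and 4400 CPM, so that ST1 was highest in both these genes and the members. The part of these differences in the member levels was not tested.

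Single cells were compared after each was thinned at random to 4000 UMIs, which left 1168 cells in LT2, 2603 in ST1 and 1678 in ST2. The 10, 49, 30 and 29 cells of the 4 libraries below 4000 UMIs were left out, and LT1, with 12 cells left, is not described. Values below are in the order LT2, ST1 and ST2. Jund had a UMI in 61.6, 58.2 and 55.7% of cells, Jun in 43.4, 44.0 and 38.3% and Ier2 in 37.7, 39.8 and 35.8%. The exact binomial 95% intervals of such shares reached 1.22 to 2.88 percentage points to either side. Junb had a UMI in 17.1, 25.0 and 19.4% of cells, Fos in 9.93, 19.1 and 11.8%, Egr1 in 9.67, 15.3 and 8.34% and Zfp36 in 8.05, 16.2 and 8.82%. For these 4 genes ST1 stood above both libraries of mouse 2. Fosb (10.4, 11 and 9.83%) and Dusp1 (10.7, 12.3 and 9.36%) were nearly level. Btg2 was found in 4.45, 12.3 and 8.22% of cells, the fewest in LT-HSC. Without thinning, Btg2 had a UMI in 7.72, 23.6 and 15.1% of cells and Fos in 16.1, 30.4 and 17.6%.

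These shares count cells with a UMI, not cells that express a gene. The libraries hold no cell type known to lack these genes, so no background share could be read. The 34884 barcodes of LT1 with 200 to 500 UMIs held the members at 751 CPM. That is below the 887, 1005 and 804 CPM in kept cells of LT2, ST1 and ST2, and nearest to ST2.

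The counts of some members were uneven among cells. The variance of thinned UMIs divided by their mean, which is 1 for counting noise alone, was 2.49 to 2.80 for Fos, 2.16 to 2.57 for Jun and 1.68 to 2.97 for Junb. It was 1.17 to 1.43 for Ier2 and 1.24 to 1.28 for Dusp1. Fos reached 3 or more UMIs in 1.54, 3.69 and 2.03% of cells, with up to 9, 9 and 12 UMIs in a cell.

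Several members were often found in the same cell. A cell had a UMI of 2.13, 2.53 and 2.06 of the 10 members on average. None was found in 11.4% (exact 95% interval 9.62 to 13.3), 9.53% (8.43 to 10.7) and 14.9% (13.2 to 16.7) of cells. At least 5 were found in 6.93% (5.55 to 8.55), 13.3% (12.0 to 14.7) and 6.73% (5.58 to 8.04). The libraries of mouse 2 were close to each other in this share although they came from different gates, and ST1 was above both. Only 9, 57 and 11 cells had 7 or more members, and 0 had all 10.

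**Figure D2:**
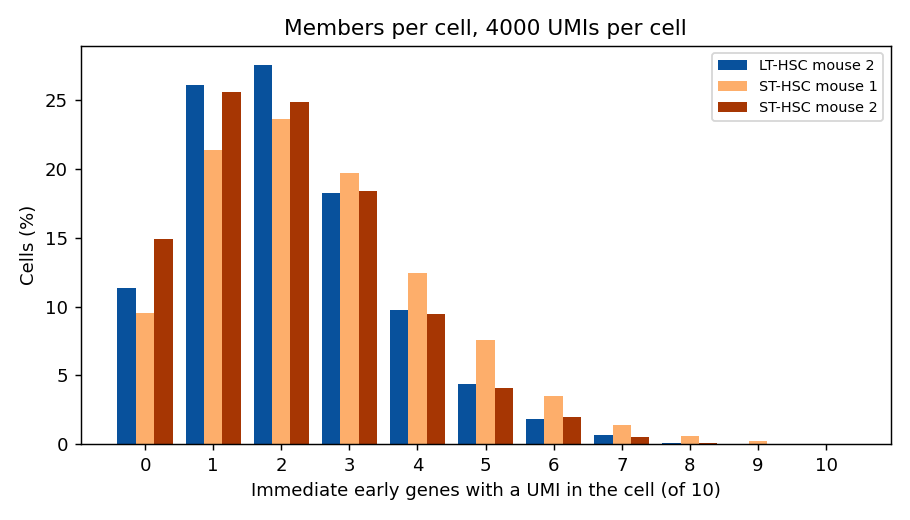
Number of the 10 immediate early genes with a UMI in a cell (x axis) and percent of cells (y axis), in cells thinned to 4000 UMIs of LT2, ST1 and ST2. ST1 has the most cells with 5 or more members (13.3%, against 6.93% and 6.73%).

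The variance of the number of members per cell was 2.16, 2.92 and 2.28, above the 1.34, 1.65 and 1.38 that are the sums of the variances of the single members. The 10% of cells with the most member UMIs held 31.2, 31.4 and 30.6% of these UMIs.

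Pairs of members were described by Pearson's r of log2(thinned UMIs + 1) across the cells of a library, which share depth and library and are not replicates. The median r over the 45 pairs was 0.0917, 0.111 and 0.0831, and r was above 0 for 44, 45 and 45 pairs. In counts this sparse such values are weak. The closest pair was Fos with Fosb, at a mean r of 0.22 over the 3 libraries. Of cells with a Fos UMI, 25.0, 28.0 and 25.8% had a Fosb UMI, against 8.84, 7.02 and 7.70% of cells without one. Next came Fosb with Jun (mean r 0.21), where 70.5, 66.6 and 59.4% of cells with Fosb had Jun, against 40.2, 41.2 and 36.0% without it. Jun with Jund (0.19), Fos with Jun (0.18) and Fos with Egr1 (0.18) followed. Of cells with Fos, 19.0, 28.4 and 19.7% had Egr1, against 8.65, 12.2 and 6.82% of the others.

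Other pairs were weaker. Ier2 was found in 38.1, 42.0 and 37.4% of cells with Jun and in 37.4, 38.1 and 34.8% of cells without it. It was found more often with Egr1, in 52.2, 52.5 and 43.6% of cells with Egr1 and in 36.1, 37.5 and 35.1% of the others (mean r 0.12). Fosb with Btg2 had the lowest mean r, 0.01. Btg2 was found in 2.46, 20.2 and 9.09% of cells with Fosb and in 4.68, 11.3 and 8.13% of those without, so the direction differed between libraries. With Fos, Btg2 was found in 11.2, 21.2 and 13.1% against 3.71, 10.2 and 7.57%. Over all 90 ordered pairs, the share of cells with the second member was higher among cells with the first in 88, 90 and 90.

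**Figure D3:**
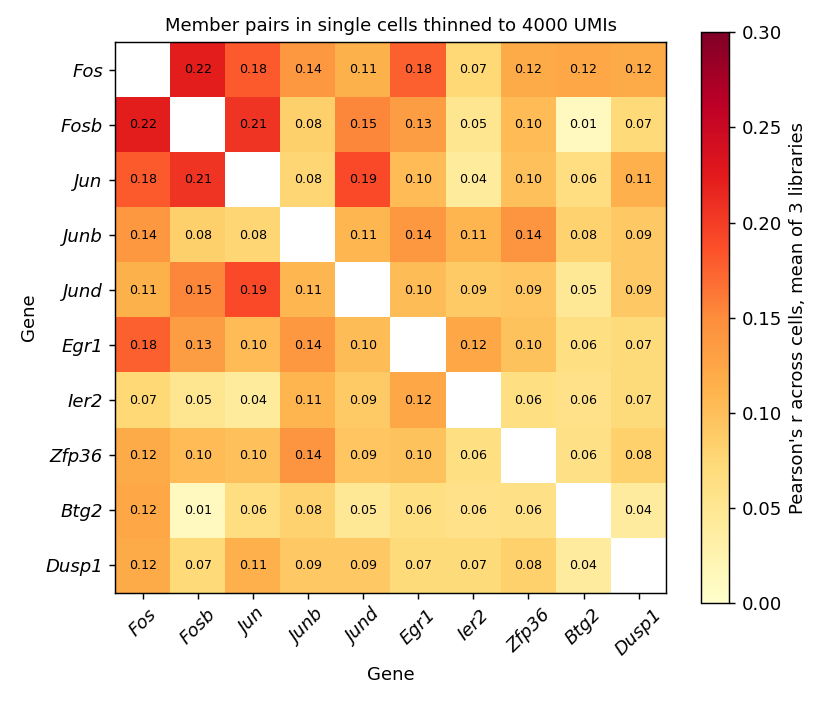
Pearson's r of each pair of immediate early genes across cells thinned to 4000 UMIs, as the mean of LT2, ST1 and ST2 (log2 of UMIs + 1, no test). The AP-1 genes Fos, Fosb and Jun hold the highest values (0.22 for Fos with Fosb) and Fosb with Btg2 the lowest (0.01).

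The gene outside the set most like the summed members across thinned cells was the nuclear noncoding RNA Malat1 (mean r 0.23 over 3 libraries), out of 7279 genes with a UMI in at least 5% of cells of each library. H3f3b, a replication-independent histone H3.3 gene, followed at 0.17 and the histone gene Hist1h2ac at 0.17. Rhob (0.13), Ppp1r15a (0.12) and Nfkbiz (0.11), all on the list of other early response genes, were among the first 10. The remaining ones were Ddx5 (0.13), Ftl1 (0.12), Srsf5 (0.12) and Txnip (0.11). Only 13 genes reached a mean r of 0.1 and 1 reached 0.2. Hist1h2ac and Ftl1 belong to families of near-identical copies, so their counts are uncertain.

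The summed member UMIs of a thinned cell went with several properties of the cell, all weakly. Pearson's r with the cell's UMI count before thinning was -0.21, -0.16 and -0.15, and with its cycle score, the thinned UMIs of 42 genes of S phase and 54 of G2/M phase, -0.23, -0.13 and -0.11. With other early response genes it was 0.24, 0.25 and 0.20. With the mitochondrial share it was 0.06, 0.11 and 0.08, and with heat shock genes -0.13, -0.11 and -0.07. With HSC markers it was 0.14, 0.10 and 0.06.

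The same relations can be read from 4 equal bins of cells ranked by each property. From the lowest to the highest bin of UMIs per cell, the mean member sum per 4000 UMIs fell from 4.45 to 2.58 in LT2, from 5.09 to 3.21 in ST1 and from 4.06 to 2.78 in ST2. Over the bins of cycle score it went from 4.31 to 2.44, from 4.98 to 3.53 and from 3.53 to 2.95. In LT2 most of that step lay between the third bin (3.96) and the fourth. Over the bins of mitochondrial share the sum went the other way, from 3.11 to 4.10, from 3.70 to 4.93 and from 2.94 to 3.79, and over those of heat shock UMIs from 4.05 to 3.01, from 4.86 to 3.78 and from 3.84 to 3.03.

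**Figure D4:**
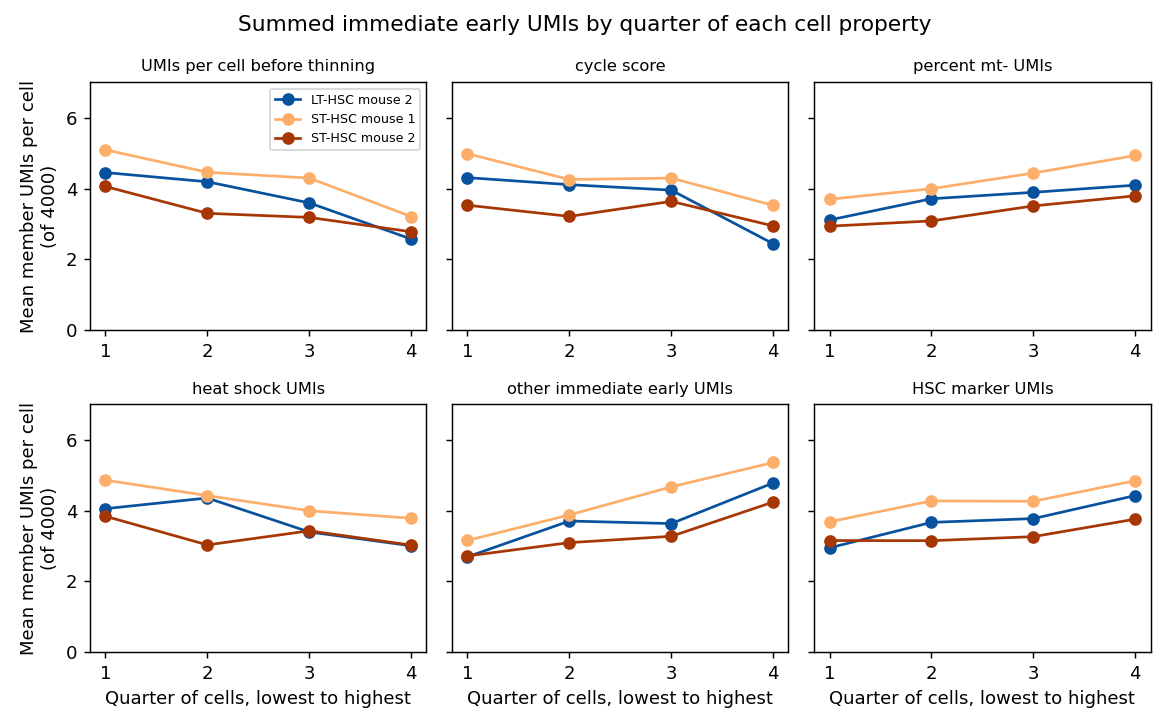
Mean summed UMIs of the 10 immediate early genes per cell thinned to 4000 UMIs (y axis), in 4 equal bins of cells ranked by each of 6 cell properties (x axis, bin 1 lowest), for LT2, ST1 and ST2. The sum falls with UMIs per cell (4.45 to 2.58 in LT2) and is higher where other early response genes are high.

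The cycle comparison asked whether members differ between cycling and resting cells of the same library. Within each library, cycle-high cells were those at or above the 80th percentile of the cycle score (15, 16 and 14 UMIs) and cycle-low cells those at or below the median of 10. This gave 246 and 671 cells in LT2, 549 and 1364 in ST1 and 378 and 956 in ST2. A score range is not a cell type, and 79, 177 and 178 cells lay within 1 UMI of the upper limit. Raw counts summed over each class were tested with edgeR, with the library as a block, over 12181 genes.

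Of the 10 members, 9 were lower in cycle-high cells, 0 were higher and 1, Btg2, did not pass. Over all genes 21.2% were higher and 17.0% lower in cycle-high cells. The median log2 difference of the members was -0.55 (cycle-high minus cycle-low), against -0.02 over all genes.

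Zfp36 had the largest fitted difference, at 13.8, 35.7 and 22.2 CPM in cycle-high cells and 32.9, 58.0 and 29.8 CPM in cycle-low cells of the 3 libraries (-0.75, SE 0.11, edgeR adjusted p = 9.92e-05). It was lower in all 3 libraries. Fos lay at 17.5, 60.1 and 38.0 CPM against 43.8, 88.2 and 54.4 CPM (-0.69, SE 0.11, edgeR adjusted p = 0.000131). Fos was lower in all 3 libraries too. Junb lay at 39.1, 65.7 and 49.5 CPM against 75.5, 98.8 and 66.1 CPM (-0.64, SE 0.08). Dusp1 lay at 21.9, 24.0 and 22.8 CPM against 41.7, 34.8 and 29.7 CPM (-0.61, SE 0.10), nearly equal among the cycle-high classes. Egr1 (-0.56, SE 0.12), Jund (-0.54, SE 0.07), Jun (-0.51, SE 0.10) and Fosb (-0.44, SE 0.11) were also lower, each in 3 of 3 libraries.

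Ier2 was lower in 2 of 3 libraries, at 88.3, 125 and 123 CPM against 148, 145 and 120 CPM (-0.29, SE 0.10, edgeR adjusted p = 0.029). Without LT2 it did not pass (-0.11, SE 0.06). Btg2 did not pass, at 8.1, 32.2 and 24.6 CPM against 10.7, 40.1 and 23.7 CPM (-0.22, SE 0.10, adjusted p = 0.110). Btg2, known as a brake on proliferation, had the smallest fitted difference of the 10.

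**Figure D5:**
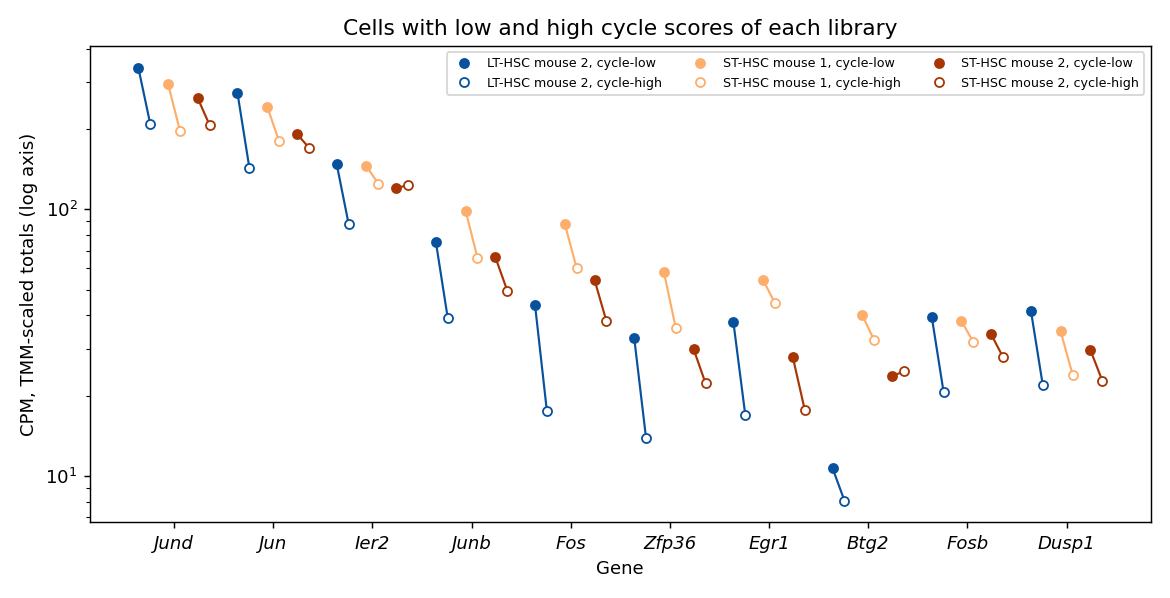
Level of each immediate early gene (CPM on TMM-scaled totals, log axis) in cycle-low cells (filled) and cycle-high cells (open) of the same library, joined by a line, for LT2, ST1 and ST2. Lines slope down in all 3 libraries for 8 genes and in 2 of 3 for Ier2 and Btg2.

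Depth moved with the cycle classes. Cycle-high cells had medians of 15202, 13199 and 9493.5 UMIs, against 9816, 9221 and 7172.5 in cycle-low cells. Counted per cell instead of per UMI, cycle-high cells held 9.02, 11.2 and 6.94 member UMIs and cycle-low cells 10.3, 10.6 and 6.17. Member UMIs per cell were thus lower in the cycle-high class of LT2 and slightly higher in that of both ST-HSC libraries. Among cells above and below the library's median UMI count, they were lower in ST1 (11.7 against 12.1 and 9.07 against 9.66). In ST2 they were higher in both (7.19 against 6.78 and 6.13 against 5.76). RNA content and capture depth cannot be told apart in these counts, so copy number was not measured.

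The split was repeated among the deeper and among the shallower cells of each library, divided at the library's median UMI count, a choice made after the data were seen. Among the deeper cells 9 members were lower in cycle-high cells, with Btg2 passing (-0.43, SE 0.12) and Ier2 not (-0.21, SE 0.09). Over all genes that fit called 2113 higher and 1537 lower of 11265. Among the shallower cells edgeR called 0 members (3 at an unadjusted p under 0.05), and over all genes 185 higher and 51 lower of 10618. Fos was at -0.60 (SE 0.18, adjusted p = 0.0513), while Jun was at -0.10 (SE 0.11), Jund at -0.15 (SE 0.10), Egr1 at -0.07 (SE 0.19), Zfp36 at -0.25 (SE 0.19) and Btg2 at 0.46 (SE 0.22). Those cycle-high classes held only 28, 94 and 89 cells, with median scores of 16, 19 and 16 against 26, 26 and 20 in the full classes. DESeq2 on the full classes called 6 members lower (Jund, Junb, Fos, Zfp36, Egr1 and Dusp1) and 0 higher. Over all genes it called 571 lower and 1384 higher of 13038.

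Other lists were also set against the cycle split. Of 34 other early response genes, 14 were lower in cycle-high cells, 1 was higher and 19 did not pass. Ier3, a survival gene, fell from 70.9, 89.6 and 82.5 CPM to 41.4, 59.6 and 59.2 CPM (-0.60, SE 0.07), and the kinase gene Pim1 (-0.61, SE 0.07) and Dusp2 (-0.48, SE 0.06) were lower too. The gene that was higher was Myc, a driver of growth (0.28, SE 0.06). Of the 19 upstream genes, 2 were higher, 4 were lower and 13 did not pass, against 21.2% higher and 17.0% lower over all genes. The list as a whole is thus not set apart from other genes. The kinase gene Mapk3 (0.23, SE 0.07) was among those higher. Those lower were the SRF partners Elk3 (-0.33, SE 0.07), Elk4 (-0.31, SE 0.08) and Mkl2 (-0.40, SE 0.11) and the factor Creb1 (-0.19, SE 0.07, named after its value was seen). Of 9 tested heat shock genes, 8 were higher, led by Hsp90aa1 at 887, 854 and 666 CPM against 442, 441 and 389 CPM (0.91, SE 0.06). Of 13 HSC markers, 10 were lower, and of 8 tested erythroid markers 6 were higher. The part of the lineage markers in the member differences was not tested. Whether the cycle difference itself varies between gates was not tested either.

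Within ST-HSC, cells were also divided by a UMI of Flt3, the receptor gene that marks multipotent progenitors, as a description with 1 library per mouse. The member sum was 1075 CPM in 1012 cells with Flt3 and 964 CPM in 1591 cells without it in mouse 1, and 815 and 789 CPM in 758 and 920 cells in mouse 2. Btg2 lay at 46.2 against 32.4 CPM in mouse 1 and 27.7 against 21.3 CPM in mouse 2, and Fos at 98.3 against 70.0 CPM and 58.6 against 49.4 CPM. Both genes were thus higher in cells with a Flt3 UMI in each mouse. Btg2 was higher in the ST-HSC cells with no Flt3 UMI than in LT2, at 32.4 and 21.3 against 9.28 CPM. The split was made on thinned cells, and Flt3 lay at only 135 and 155 CPM in ST1 and ST2. Many cells that express Flt3 can therefore show no UMI of it. The level of Btg2 in ST-HSC cells that lack Flt3 was thus not measured.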

How the data were processed

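Transcripts of single cells were counted in 4 libraries from 2 mice. The authors deposited unnormalised UMI counts of each gene in each barcode. Cell Ranger 3.1.0 and mm10 were used, per the submitters' processing notes, although the matrices carry version 3.0.2, per the file headers. The sources used here do not give how the authors chose barcodes. Gate and mouse were read from the sample titles. No doublet caller was run, and cells above 2 times their library's median UMIs were left out as an alternative. The tables listed 31053 genes.

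Counts summed over kept cells (115305 to 27870823 UMIs per library) were tested with edgeR 4.0.16 in R 4.3.3 (quasi-likelihood test, TMM, filterByExpr), with Benjamini-Hochberg adjustment over all tested genes and a threshold of 0.05. DESeq2 1.42.0 was the alternative. Standard errors (SE) are the size of the log2 difference divided by the square root of F. Alternatives were another normalization (RLE size factors), no filter on low counts, other sets of cells, the mouse as block, and each library left out. Cells were thinned without replacement to 4000 UMIs. Intervals (95%) and floors (3 counts) cover counting error only. On counts simulated from these libraries, the tests recovered 86% (gate), 93% (mouse) and 100% (cycle) of genes given a log2 change of 1, with 10 false calls among 12313 genes, 44 among 12358 and 12 among 11968. Only genes above a minimum level were given a change. Among the genes called by the mouse test, the false share was well above the threshold of 0.05.

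LT1 and ST1 came from a single animal, as did LT2 and ST2, so the mouse number pairs the libraries. Deviations from the group means correlated at 0.0549 across 12656 genes between the libraries of a mouse.

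The members, the lists and the tests were chosen with earlier results of these data known. The text names all members and, from the lists of other early response, upstream and heat shock genes, up to 3 genes per direction of lowest p among those averaging at least 5 CPM, except that an upstream gene is not reported here. It also names the 10 genes most correlated with the summed members. Cells of other types were sought with neutrophil, macrophage (without Apoe), erythroid, B cell, T and NK cell, and mast cell and basophil lists.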

Additional observations from a re-analysis of the deposited data

Results flagged for a closer look

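The barcodes that failed the cell filter, which enter no comparison on kept cells, also held the 10 genes. Their summed level there was 768.9 CPM in LT1 (kept cells 590 CPM), 985.2 CPM in LT2 (kept cells 887 CPM), 1225 CPM in ST1 (kept cells 1005 CPM) and 713.2 CPM in ST2 (kept cells 804 CPM). These values stand above the floors of 0.223, 33.6, 13.7 and 25.2 CPM that 3 counts allow. The level was higher outside than inside the filter in 3 of 4 libraries, with no test. In LT1 it was 751 CPM in 34884 barcodes of 200 to 500 UMIs, 833 CPM in 4243 barcodes with more UMIs up to 1000, and 783 CPM in 394 barcodes of 1000 to 2000 UMIs. In ST1, 140 barcodes under 2000 UMIs held the members at 1359 CPM, Fos at 157 CPM and a mitochondrial share of 26.6%, against 80.6 CPM of Fos and 3.41% in kept cells.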

How the results depend on the processing

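The gate counts (0 members higher in LT-HSC, 2 in ST-HSC) rest on few libraries. The count in ST-HSC was 0 with DESeq2 (1 at an unadjusted p under 0.05), 0 without cells holding 3 UMIs of another cell type's list (where 7 members, without Btg2, were tested and 0 of 3771 genes were called, so the 0 is no lost call of Btg2), 1 in cycle-low cells, 1 with all barcodes of LT1 and without LT2, and 0 to 2 when each library was left out (0 without LT2, 1 without ST1). It kept 2 with mouse as the replicate block, and the block changed no other call. The count of 1 higher in mouse 1 became 0 with DESeq2. The cycle count of 9 became 0 among shallower cells and 8 to 10 when a library was left out. Over the 3 larger libraries the median pair correlation was 0.0953 ± 0.0143 (SD, n = 3), 0.0728 at 2000 UMIs and 0.152 without thinning, and the share of cells with 5 or more members was 9.0%, 2.10% and 28.4%, as deeper cells show more genes. Some log2 gate differences changed sign, and none passed the test with the changed sign. In cycle-low cells they were 0.078 for Fosb, 0.19 for Jun and 0.044 for Ier2. With all barcodes of LT1 they were 0.012 for Jun and 0.23 for Ier2, and with the block added 0.0075 for Jun, 0.015 for Egr1 and 0.22 for Ier2. With the block alone Egr1 was at 0.12, and without high-UMI cells Jun was at 0.043. Without cells holding 3 UMIs of another list Junb was at 0.23, Egr1 at 0.16, Ier2 at 0.017 and Zfp36 at 0.90 (SE 0.54). With all barcodes of LT1 and without LT2, Junb was at 0.13, Egr1 at 0.22, Ier2 at 0.43 (SE 0.17, adjusted p = 0.166) and Dusp1 at -0.10, and with DESeq2 Dusp1 was at -0.064. Leaving out each library gave -1.05 to 0.10 for Fos, -1.10 to 0.16 for Jun, -0.075 to 0.24 for Jund, -0.78 to 0.23 for Egr1 and -0.92 to 0.15 for Dusp1. In the mouse comparison Fosb was at 0.19, Ier2 at -0.32 and Dusp1 at 0.038 with all barcodes of LT1, Fosb at 0.63 and Dusp1 at 0.17 with DESeq2, and Jun at -0.28, Jund at -0.10 and Ier2 at -0.24 in ST-HSC alone. Among shallower cells the cycle difference was 0.032 for Fosb and 0.46 for Btg2. The cause of these changes was not tested. In LT1 the floor of 26.0 CPM lies above or near the levels of Btg2, Dusp1 and Zfp36, so its kept cells cannot show changes in them.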
